A study of Macaca fascicularis with 6 samples.

Results

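The genes examined here were 42 genes of the cell cycle, taken by name: 19 genes that act in S phase, when DNA is copied, and 23 genes that act in G2 and mitosis (G2/M). Of these, 40 were listed in the deposited matrices, among 13950 genes in one matrix and 14020 in the other. All 19 S genes and 21 of the 23 G2/M genes were listed. BIRC5 and NUSAP1 were not analysed here.

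A dividing cell makes these genes in waves. The S genes supply the MCM helicase that is loaded on origins by CDC6 and CDT1, the sliding clamp PCNA and its loader RFC2, and the enzymes that make deoxynucleotides (TYMS, RRM1, RRM2). The G2/M genes supply CDK1 with its cyclins, the kinases and motors of the spindle, and the ubiquitin ligase factors that end mitosis (UBE2C, CDC20). A cell outside the cycle keeps most of them low, and adult articular chondrocytes are known to divide rarely, while pluripotent stem cells cycle quickly with a short G1.

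Single-cell transcriptomes of cynomolgus monkey (Macaca fascicularis) cells were measured under 5 conditions. Induced pluripotent stem cells (cyiPSC) carried an EGFP reporter, placed by the authors at AAVS1 behind the constitutive CAG promoter in a single line, and were maintained on inactivated mouse fibroblasts as feeder cells. Cartilage grown from that line in vitro (cyiPS-Cart) was taken pre-transplant. The post-transplant sample was the same kind of cartilage recovered 4 months after it had been placed, as an allograft, in chondral defects of the knees of wild type monkeys aged 3 to 4 years. Healthy cartilage of the joint surface (cyAC) and fibrous tissue from defects into which nothing was placed (cyFT) came from wild type monkeys of the same age range and time. The number of animals behind each tissue was not given with the cells, and sites were combined.

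Each condition was 1 sample, so no test between conditions was possible. Intervals below are 95% and cover the counting of reads or cells, not the spread between animals, and reads are not independent molecules. The cyiPSC and pre-transplant cells shared a library, as did cyAC and cyFT cells, and post-transplant cells had their own, so library and condition cannot be told apart between them. One matrix held 2500 cyiPSC and 3527 pre-transplant cells. The other held 320 cells of each of the remaining conditions and of pre-transplant cyiPS-Cart, and 300 of these pre-transplant cells were in both matrices. Median reads per cell ran from 27500 (cyFT) to 143075 (cyiPSC), and the lowest total over a sample was 11087496 reads. Pluripotency markers summed to 2674 counts per 1000000 reads (CPM) in cyiPSC and to 7.02 to 34.9 CPM elsewhere, the chondrocyte markers to 34408 to 78077 CPM outside cyiPSC, and reads of the EGFP transgene were at 0 in cyAC and cyFT and present in each of the 320 post-transplant cells. Fibroblast markers (6 genes) summed to 391 CPM in cyiPSC, 23424 and 23428 CPM in the pre-transplant sets, 72357 CPM after transplantation, 9627 CPM in cyAC and 48287 CPM in cyFT. COL1A2, COL3A1 and LUM were higher in post-transplant cyiPS-Cart than in cyFT, while COL1A1 (10168 against 18192 CPM), THY1 and PDGFRA were higher in cyFT. Their part in the values below was not tested.

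The authors' removal of diffused background had set low counts of strongly read genes to 0, and its traces bear on the levels below. In the library of cyiPSC and pre-transplant cells 11 of the genes had a lowest count above 0 of 6 to 8, namely MCM6, PCNA, RRM2, TOP2A, CDK1, CCNB1, UBE2C, CENPF, CDC20, HMGB2 and STMN1. In the post-transplant library this held for TOP2A, CCNB1, CENPF, BUB1B, CDC20, HMGB2 and STMN1, whose lowest counts were 7 to 27, and in that of cyAC and cyFT for CCNB1 and UBE2C, at 8 and 13. Where few cells had reads, a high lowest count need not be such a trace. CCNB1 had reads in 1 post-transplant cell, and CCNB1 and UBE2C in 3 cyFT cells each. A removal of this kind lowers the level of a gene most where cells hold few reads of it, and its part in each value was not tested.

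In cyiPSC the S genes summed to 3970 CPM and the G2/M genes to 7039 CPM. In the larger pre-transplant set they summed to 537 and 356 CPM. In the 4 samples of the other matrix, the S genes summed to 488 CPM before transplantation, 378 after it, 260 in cyAC and 408 in cyFT. The G2/M genes summed to 325, 267, 159 and 392 CPM in the same order. The cyiPSC thus stood far above the other samples. The order of the G2/M sums among the 4 samples changed when few cells or genes were left out. Without the cells that had 10 or more of the genes, described below, the sums were 152 CPM before transplantation, 258 after it, 159 in cyAC and 214 in cyFT. Those cells were chosen by the same genes, so the choice itself lowers the sums of samples that hold them. Over all cells but without HMGB2 and STMN1 the sums were 245, 49.5, 60.8 and 203 CPM.

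**Figure D1:**
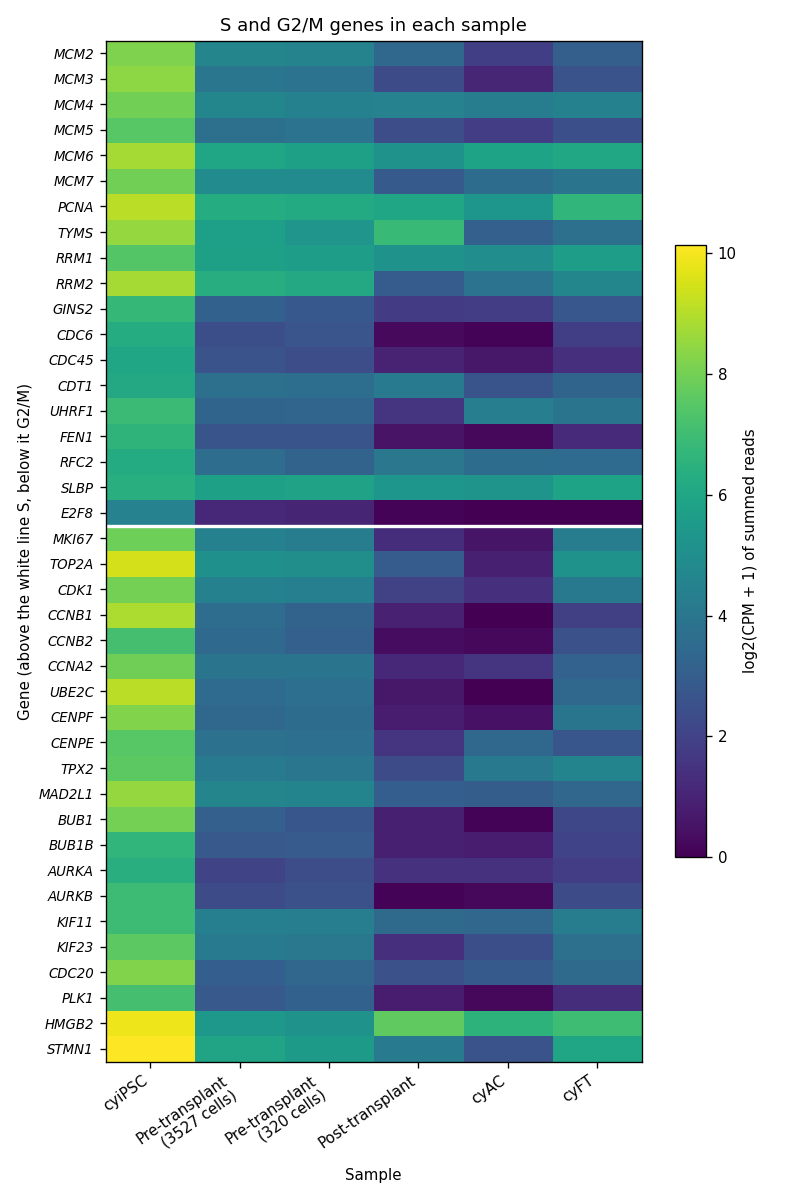
Heat map of the 40 listed genes (rows, S genes above the white line and G2/M genes below it) in 6 sets of cells (columns); colour is log2(CPM + 1) of reads summed over the cells of a set. The cyiPSC column is the brightest in each row, and HMGB2 and TYMS are the rows that are at least 2-fold higher in post-transplant than in pre-transplant cyiPS-Cart.

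With 1 exception the genes were at least 2-fold lower in pre-transplant cyiPS-Cart than in cyiPSC. The ratios were taken on log2(CPM + 1) of summed reads, over genes with a mean of at least 5 CPM in the samples compared. All 40 passed that filter, 39 were at least 2-fold lower and 0 were higher. Over all genes tested, 36.7% were at least 2-fold lower and 16.1% at least 2-fold higher. The median log2 ratio was -4.22 for the G2/M genes, -3.32 for the S genes, -0.59 for all genes tested and -0.39 for all genes listed.

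The G2/M genes with the lowest ratios were UBE2C, CCNB1 and CDC20, all 3 among the genes whose low counts were missing in this library. UBE2C, the ubiquitin-conjugating enzyme of the anaphase-promoting complex, was at 538 CPM in cyiPSC and 10.8 CPM in pre-transplant cyiPS-Cart (log2 ratio -5.52). CCNB1, the mitotic cyclin B1, went with it from 478 to 11.3 CPM (-5.28). CDC20, an activator of the same complex, was at 295 and 7.08 CPM (-5.20). These were the lowest of the 40 genes, and at the other end of the G2/M list KIF11, the motor that separates spindle poles, had a log2 ratio of -2.60.

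MKI67, which coats mitotic chromosomes and is the common marker of proliferation, was at 238 CPM in cyiPSC and 20.8 CPM in pre-transplant cyiPS-Cart. TOP2A, which untangles sister chromatids, was at 722 and 33.4 CPM. CDK1, the mitotic kinase, was at 257 and 20.7 CPM. Cyclins followed the same order, with CCNB2 at 142 and 9.93 CPM and CCNA2 at 243 and 14.0 CPM. The kinetochore protein CENPF was at 296 and 9.65 CPM, and STMN1, which destabilises microtubules, at 1124 and 59.5 CPM.

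The mitotic kinases AURKA, AURKB, BUB1 and PLK1 and the spindle checkpoint proteins BUB1B and MAD2L1 ranged from 82.8 CPM (AURKA) to 373 CPM (MAD2L1) in cyiPSC and from 3.22 to 23.5 CPM, for the same genes, in pre-transplant cyiPS-Cart. In the 4 samples of the other matrix these 6 genes spanned 4.27 to 22.7 CPM before transplantation, 0.067 to 7.27 CPM after it, 0.0846 to 6.85 CPM in cyAC and 1.53 to 9.11 CPM in cyFT. In each of those samples MAD2L1 was the highest, and all the others were too low to pass the filter used for the ratios there. The motor KIF23, which acts in cytokinesis, was at 190 CPM in cyiPSC and 17.6 CPM in pre-transplant cyiPS-Cart.

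Among the S genes the 6 subunits of the MCM helicase had log2 ratios from -4.45 (MCM3, 344 against 14.8 CPM) to -2.76 (MCM6, 434 against 63.4 CPM). PCNA was at 540 and 76.3 CPM, TYMS at 371 and 52.2 CPM, and RRM2 at 433 and 77.8 CPM. UHRF1, which brings maintenance methylation to replicated DNA, was at 118 and 8.72 CPM. The origin and fork factors CDC6, CDC45, GINS2 and FEN1, with the repressor E2F8, ranged from 21.5 to 108 CPM in cyiPSC and from 1.16 to 7.88 CPM in pre-transplant cyiPS-Cart. The same 5 genes did not exceed 6.01 CPM in any sample of the other matrix. The 3 highest ratios belonged to S genes: CDT1 (-2.36), RRM1 (-1.67) and SLBP (-0.58). SLBP, which binds the stem-loop of histone mRNAs, was the exception to the 2-fold difference, at 80.5 CPM in cyiPSC and 53.3 CPM in pre-transplant cyiPS-Cart.

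Both samples were in a single library, and pluripotency markers were set beside the S and G2/M genes as a comparison. The 12 markers were, in pre-transplant cyiPS-Cart, at a median of 2.44% of their cyiPSC level, from 0.663% (DNMT3B) to 3.86% (PRDM14), apart from DPPA4 at 18.2%. The S genes were at a median of 9.67% and all 19 were above 3.86%. The G2/M genes were at a median of 5.29%, and 15 of the 21 were above 3.86%. UBE2C at 2.00%, CCNB1 at 2.36% and CDC20 at 2.4% were within the range of the pluripotency markers. In the samples from libraries without cyiPSC, 9 of the 12 markers were at 0 reads after transplantation, 8 in cyAC and 6 in cyFT, with NANOG, SOX2, LIN28A, LIN28B, SALL4 and FGF4 at 0 in all of these. PRDM14, which sets the 3.86%, DPPA4 and DNMT3B had reads in each. PRDM14 was at 5.30 CPM in the larger pre-transplant set, and at 3.92 CPM in post-transplant cyiPS-Cart, 3.30 CPM in cyAC and 3.79 CPM in cyFT. DPPA4 was at 0.786 CPM there and at 1.24 CPM, 1.27 CPM and 0.451 CPM in the same 3 tissues. DNMT3B was at 11.2 CPM in the larger pre-transplant set and at 3.38 CPM, 1.61 CPM and 1.17 CPM in these tissues. The part of carried-over RNA in the levels of the S and G2/M genes was not tested.

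**Figure D2:**
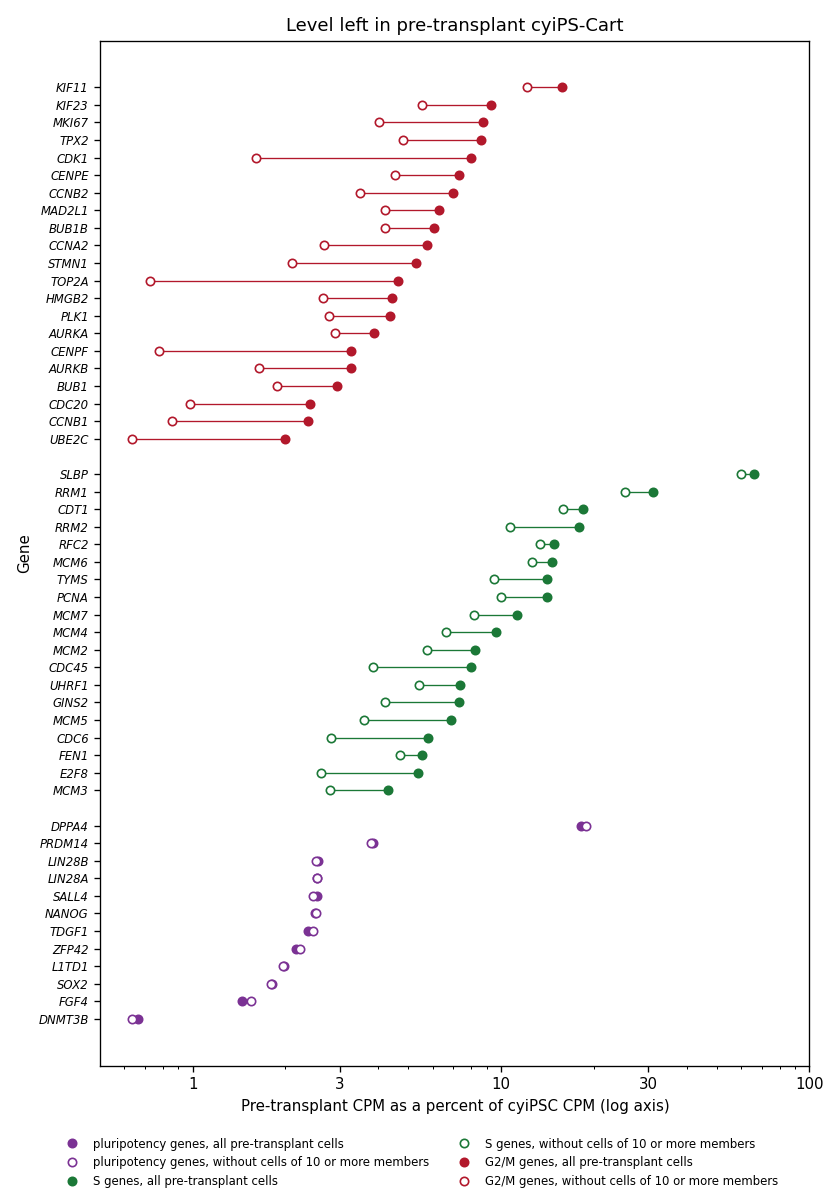
Pre-transplant CPM as a percent of cyiPSC CPM (log axis) for 12 pluripotency markers, 19 S genes and 21 G2/M genes; filled points use all 3527 pre-transplant cells and open points leave out the 179 cells with 10 or more of the genes. The open points of TOP2A, CDK1, CENPF and UBE2C lie far to the left of the filled ones, while SLBP, RFC2 and MCM6 hardly shift.

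The number of the 40 genes with a read was counted in each cell after thinning to 12191 reads, which left out 7 cyiPSC, 8 pre-transplant, 12 cyAC and 32 cyFT cells. The median cyiPSC had 29.0 of the genes, the median pre-transplant cell 3.00, and the median cell of post-transplant cyiPS-Cart, cyAC and cyFT 2.00. Cells with 3 or more of the genes were 99.8% of cyiPSC (interval 99.5 to 99.9) and 62.3% of pre-transplant cells (60.6 to 63.9). Among the other tissues they were 39.7% of post-transplant cells (34.3 to 45.3), 26.9% of cyAC cells (22.1 to 32.3) and 47.2% of cyFT cells (41.3 to 53.2). Chance in the thinning itself moved these shares. Over 20 draws the cyAC share ran from 25% to 32.5% (mean 30%), the post-transplant share from 35% to 41.9% (mean 38.1%) and the cyFT share from 46.5% to 50.0% (mean 48.2%), so the cyAC draw given first lay at the low end. Without thinning the shares were 90.6% in pre-transplant cells, 73.4% in post-transplant cells, 54.4% in cyAC and 64.1% in cyFT. Without HMGB2 and STMN1 they were 59.0%, 23.4%, 19.8% and 32.6% at equal depth, and with the other genes of the phase lists in place of the 40 they were 96.8%, 81.9%, 88.3% and 87.2%, where cyAC was no longer the lowest.

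The cells with 3 genes were mostly part of a single low hump. Beyond it lay a thin tail, which a threshold of 10 genes, chosen after the distribution was seen, separates. At or above it were 2463 of 2493 cyiPSC (98.8%), 179 of 3519 pre-transplant cells (5.09%, interval 4.38 to 5.87) and 4 of 320 post-transplant cells (1.25%, 0.342 to 3.17). In cyFT they were 5 of 288 cells (1.74%, 0.566 to 4.00). In cyAC they were 0 of 308 (interval up to 1.19), where a limit of 3 cells comes to 0.974%, and the cyAC cell with the most had 7 of the genes. In the 320 pre-transplant cells of the second matrix the share was 4.70% (2.66 to 7.64). The size of the tail depended on the settings. Without thinning it held 23.4% of pre-transplant and 4.38% of post-transplant cells, and with 2 reads asked of each gene 2.87% and 0.312%. With the other genes of the phase lists in place of the 40 it held 16.0% of pre-transplant cells, 2.27% of cyAC cells and 4.17% of cyFT cells.

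**Figure D3:**
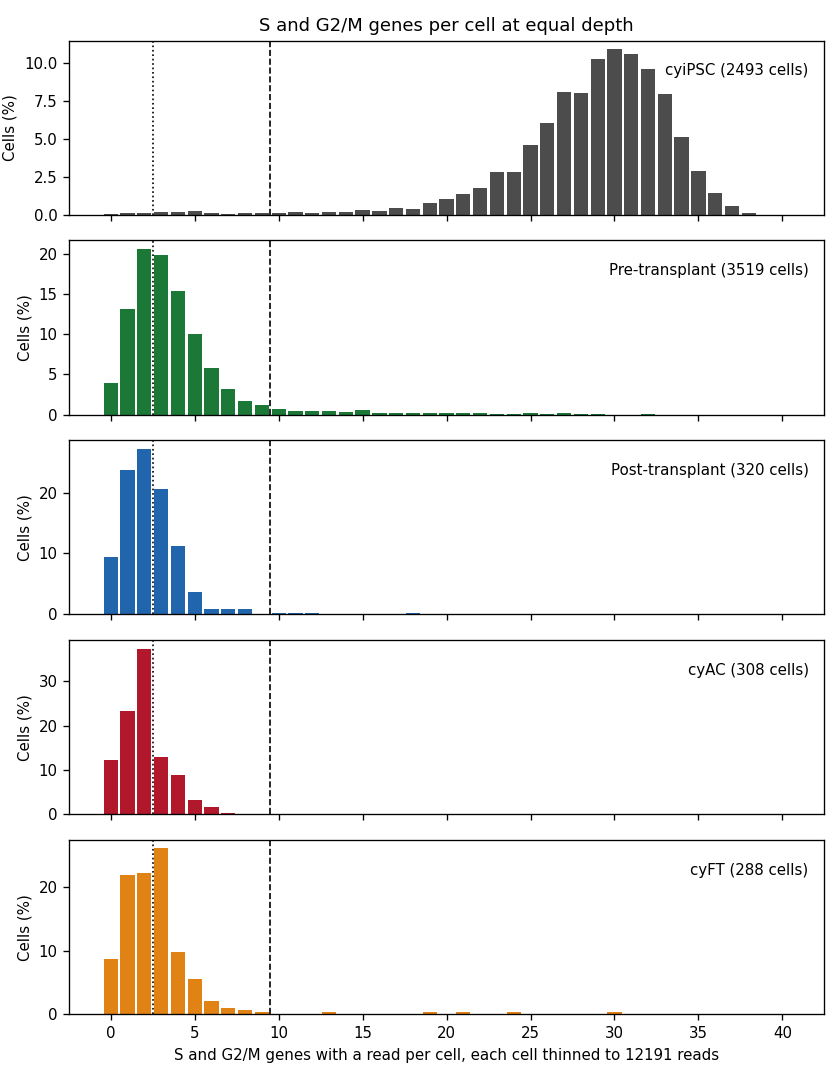
Share of cells (vertical axis, percent) by the number of S and G2/M genes with a read (horizontal axis), after each cell was thinned to 12191 reads; dotted and dashed lines mark 3 and 10 genes. Most cyiPSC hold 20 or more genes, 179 pre-transplant cells form a long tail past 10, and cyAC has no cell past 7.

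Genes of both lists were seen in the tail. Of the 179 pre-transplant cells, 144 had reads of 3 or more S genes and 3 or more G2/M genes, 18 had fewer than 3 G2/M genes, and 17 had fewer than 3 S genes. More S than G2/M genes were found in 116 of them and more G2/M than S genes in 56. In cyiPSC this order was the other way round, with more G2/M genes in 1575 of 2463 cells and more S genes in 722. The lists differ in length and in how strongly their genes are read, so these counts are compared between samples and not within one.

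**Figure D4:**
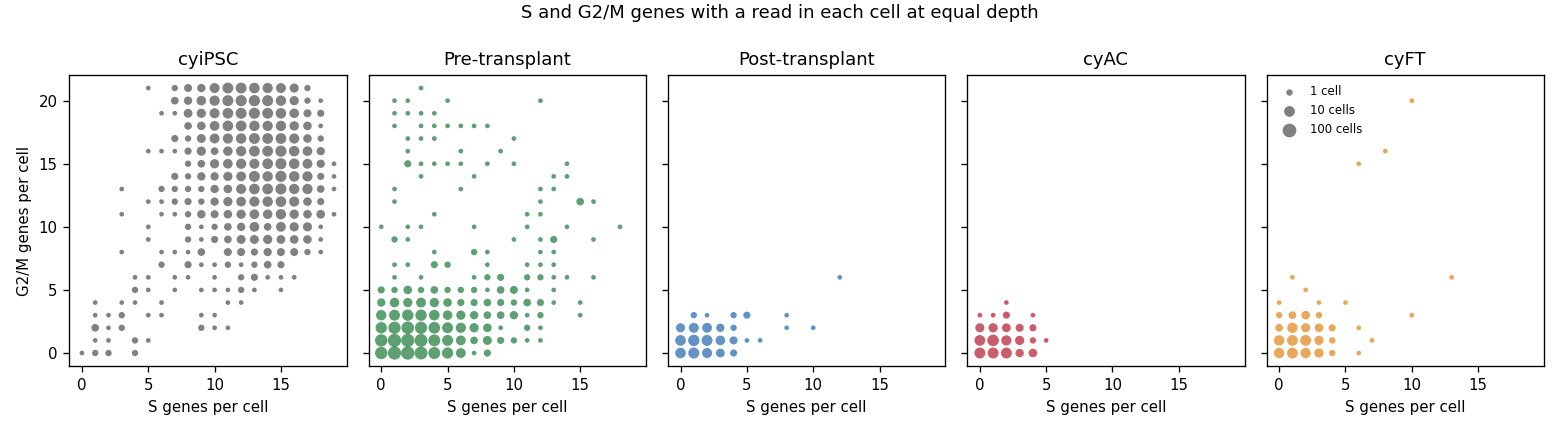
Number of S genes (horizontal axis) and G2/M genes (vertical axis) with a read in each cell at equal depth, 1 panel per condition; point size grows with the logarithm of the number of cells at that position. Among the 179 pre-transplant cells with 10 or more genes, 116 lie on the S side and 56 on the G2/M side, and 3 cyFT cells lie at 15 or more G2/M genes.

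The 179 pre-transplant cells carried chondrocyte markers, and few carried those of cyiPSC. COL2A1, the collagen of cartilage, had reads in 159 of them (88.8%, against 92.7% of the other cells), COL1A1, the collagen of fibrous tissue, in 70 (39.1% against 25.7%), and the transgene in each. Reads of 3 or more pluripotency markers at equal depth were found in 1 of the 179 and in 16 of the other 3340 cells. By level, chondrocyte markers summed to 38526 CPM in the 179 cells and 48385 CPM in the others. Fibroblast markers summed to 26121 and 23239 CPM, and pluripotency markers to 44.6 and 34.2 CPM. The median depth of the 179 cells was 81375 reads against 58387.

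To ask how far each gene was confined to such cells, its reads were followed into the cells with 10 or more of the other genes, so that the gene itself did not choose them. In pre-transplant cyiPS-Cart these cells, about 5% of the total, held a median of 51.7% of the reads of a G2/M gene and 32.2% of those of an S gene. TOP2A had 84.5% of its reads there, CDK1 80.3%, CENPF 77.2%, UBE2C 69.6% and CCNB1 64.4%. Low counts of these 5 were missing in this library, and among the G2/M genes with counts from 1 the highest value was 56.4% (CCNA2). At the other end were RFC2 (14.3%), SLBP (14.7%) and MCM6 (17.4%). MKI67 had 54.9% of its reads in them.

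Outside the 179 cells, which these genes themselves chose, G2/M genes were at a median of 2.66% of their cyiPSC level, near the 2.46% of the pluripotency markers, and 7 of the 21 were above 3.86%. TOP2A was at 0.729% and UBE2C at 0.634%, both genes whose low counts were missing. S genes were at a median of 6.61%, and 14 of the 19 were above 3.86%. The S genes that stayed high outside the tail were SLBP (59.8%), RRM1 (25.2%), CDT1 (15.9%), RFC2 (13.4%) and MCM6 (12.6%).

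After transplantation the log2 ratio was below 0 for 35 of the 40 genes and above 0 for 5. Of 28 genes that passed the filter, 17 were at least 2-fold lower and 2 at least 2-fold higher. Over all genes tested 17.4% were lower and 8.74% higher by that much. The lower genes were 11 of 14 G2/M genes and 6 of 14 S genes. Of these 17, 11 passed the filter through their pre-transplant level and were under 5 CPM after transplantation, so the filter itself favoured a difference, and 6 were at 5 CPM or more in both samples. The median log2 ratio over all 40 was -1.61, against -0.07 over all genes listed. In a tissue sum, fewer cycling cells and less RNA of these genes per cell cannot be told apart. Without the cells of 10 or more genes, which were 15 pre-transplant and 4 post-transplant cells, 7 genes in place of 17 were at least 2-fold lower. Those cells were chosen by the same genes, so the choice itself favours a smaller count.

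RRM2 had the lowest ratio, at 67.7 CPM before and 6.63 CPM after (log2 ratio -3.17). UBE2C was at 12.1 and 0.569 CPM (-3.06) and MKI67 at 18.7 and 1.54 CPM (-2.95). TOP2A was at 31.2 and 6.80 CPM, CDK1 at 3.01 CPM after it (log2 ratio -2.39), CCNA2 at 14.0 and 1.24 CPM, and CENPF at 11.1 and 0.770 CPM. CCNB1 (8.45 and 0.904 CPM) and CCNB2 (7.61 and 0.268 CPM) were under the filter. Of these, TOP2A and CENPF had no counts under 7 in the post-transplant library, so their levels there may be too low. The 27 reads of CCNB1 there lay in 1 cell, so its lowest count cannot show whether low counts were removed. Within the MCM helicase the subunits did not move alike. MCM2, MCM3, MCM5 and MCM7 had log2 ratios from -2.0 to -1.09, while MCM4 was at 20.7 and 21.5 CPM and MCM6 at 52.8 and 34.7 CPM. PCNA was at 73.3 and 62.5 CPM and SLBP at 56.5 and 39.5 CPM.

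The 4 post-transplant cells with 10 or more genes had reads of COL2A1, of the cartilage proteoglycan gene ACAN and of the donor's EGFP transgene. One of them had 12 S and 6 G2/M genes, with 34 reads of MKI67, 17 of CDK1 and 9 of TOP2A, and 3323 reads of COL1A1 beside 4099 of COL2A1. The other 3 had 0 reads of MKI67 and of COL1A1 and 2 or 3 G2/M genes, and each of the 4 had more S than G2/M genes. The first cell held 34 of the 46 MKI67 reads of the sample, but MKI67 was the highest of the G2/M genes in this. Counted in the cells with 10 or more of the other genes, the median was 0% of the reads of a G2/M gene and 6.90% of those of an S gene, and TOP2A had 9 of 203 reads there.

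HMGB2 and TYMS were the 2 genes that were at least 2-fold higher after transplantation. HMGB2, a DNA-bending chromatin protein that chondrocytes of the superficial zone are known to make, was at 939 CPM in cyiPSC, 41.7 and 35.4 CPM in the larger and smaller pre-transplant sets, 201 CPM after transplantation, 92.8 CPM in cyAC and 127 CPM in cyFT. Post-transplant cyiPS-Cart was 2.47 above pre-transplant on the log2 scale, and both were below cyiPSC. TYMS, which makes thymidylate, was at 371 CPM in cyiPSC, 52.2 and 38.1 CPM before transplantation, 115 CPM after it, 7.61 CPM in cyAC and 12.4 CPM in cyFT. Reads of TYMS were found in 33.8% of the smaller pre-transplant set, 43.1% of post-transplant cells, 3.75% of cyAC cells and 5.31% of cyFT cells, so the cyiPS-Cart samples stood above the other tissues. The other ratios above 0 were those of RFC2 (8.31 and 15.2 CPM, log2 ratio 0.80), CDT1 (0.50) and MCM4 (0.05).

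The post-transplant cells with 10 or more of the other genes, 0.938% of cells for HMGB2 and 1.25% for TYMS, held 1.82% of the HMGB2 reads and 1.75% of the TYMS reads, within the range of the other genes. HMGB2 was at 302 CPM in them and 200 CPM in the rest, and TYMS at 125 and 115 CPM. HMGB2 was at 204 CPM in the 227 post-transplant cells with reads of PRG4, the lubricin gene, and at 189 CPM in the 93 without. TYMS was at 100 CPM in the former and 164 CPM in the latter. The former had a median of 84725 reads per cell and the latter 64430. In cyFT HMGB2 was at 131 CPM in cells with PRG4 reads and 64.5 CPM in those without. In cyAC it was at 91.2 and 202 CPM, the latter from 9 cells, and in the larger pre-transplant set at 43.3 and 41.3 CPM.

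HMGB2 had no count below 8 in the library of cyiPSC and pre-transplant cells, whereas cyAC and cyFT kept its counts from 1. Using counts of 8 or more in each sample, HMGB2 was at 35.4 CPM before and 200 CPM after transplantation, 65.1 CPM in cyAC and 99.1 CPM in cyFT. Low counts of HMGB2 were already missing in the post-transplant library too, so this cut could hardly change the difference between post-transplant and pre-transplant cyiPS-Cart. The difference between cyAC and pre-transplant cyiPS-Cart was then under 2-fold. TYMS kept counts from 1 in each sample.

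**Figure D5:**
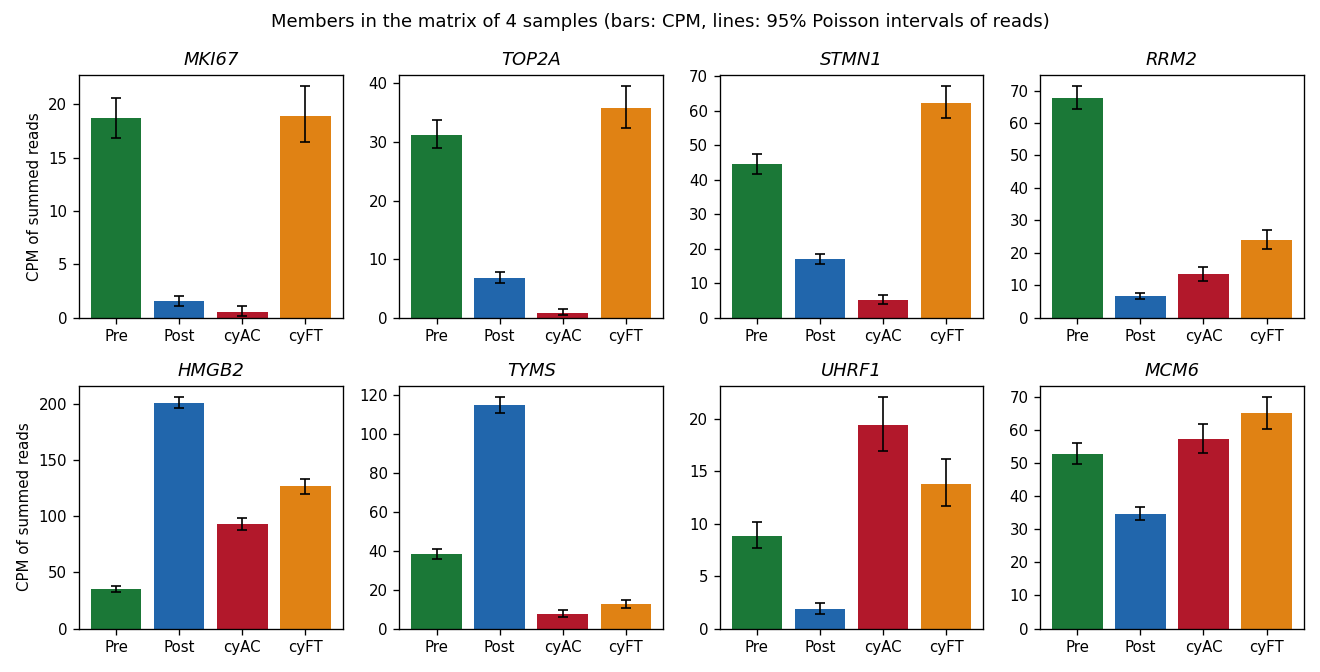
CPM of summed reads (bars from 0, linear axes that differ between panels) with 95% Poisson intervals of the reads, for 8 genes in the 4 samples of 1 matrix. MKI67, TOP2A and STMN1 are high in pre-transplant cyiPS-Cart and cyFT, RRM2 is highest before transplantation, HMGB2 and TYMS are highest after it, and UHRF1 is highest in cyAC.

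In cyAC the log2 ratio to pre-transplant cyiPS-Cart was below 0 for 35 of the 40 genes. Of 28 genes that passed the filter, 15 were at least 2-fold lower and 2 at least 2-fold higher, against 14.8% and 11.6% of all genes tested. Of the 15, 10 were under 5 CPM in cyAC and passed the filter through their pre-transplant level, and 5 were at 5 CPM or more in both. The median log2 ratio over all 40 was -1.87, against 0.00 over all genes listed. Without the cells of 10 or more genes, 8 in place of 15 were at least 2-fold lower, again with cells chosen by the same genes.

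TOP2A was at 31.2 CPM in pre-transplant cyiPS-Cart and 0.846 CPM in cyAC (log2 ratio -4.13). MKI67 was at 18.7 and 0.507 CPM (-3.71), the latter from 6 reads. CCNB1 and UBE2C had 0 reads in the 320 cyAC cells. In that library the lowest count above 0 was 8 for CCNB1 and 13 for UBE2C, each set by 3 cyFT cells. Low counts of these genes may have been set to 0, which so few cells cannot show, and no fold is given for them. They were at 8.45 and 12.1 CPM in pre-transplant cyiPS-Cart. E2F8, a repressor that acts in S phase, was also at 0 reads in cyAC, against 23 reads in pre-transplant cyiPS-Cart. STMN1 was at 44.6 and 5.07 CPM, CCNA2 at 14.0 and 1.94 CPM, CDK1 at 1.61 CPM in cyAC (log2 ratio -3.01), and RRM2 at 67.7 and 13.4 CPM.

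Of the MCM subunits, MCM2 was at 2.71 CPM, MCM3 at 1.10 CPM, MCM5 at 2.62 CPM and MCM7 at 10.9 CPM in cyAC (log2 ratios from -2.78 to -1.30). TYMS was at 38.1 and 7.61 CPM (-2.18). A few S genes were close to or above their pre-transplant level. MCM4 was at 20.7 and 18.6 CPM, MCM6 at 52.8 and 57.4 CPM, and RFC2 at 8.31 and 11 CPM (log2 ratio 0.37). Low counts of MCM6 were missing in the pre-transplant library, and with counts of 8 or more in each sample MCM6 was at 46.2 and 39.2 CPM. UHRF1 was higher, at 8.88 and 19.4 CPM (1.05), as was HMGB2 (1.36). PCNA was at 73.3 and 38.9 CPM and SLBP at 56.5 and 37.3 CPM. TPX2, a spindle assembly factor, had 14.9 and 15.9 CPM, its reads lying in 33.1% and 32.8% of cells.

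Post-transplant cyiPS-Cart and cyAC, both taken from the joint, could be compared for 19 of the genes, the other 21 being under the filter. Of these 19, 5 were at least 2-fold higher after transplantation and 3 at least 2-fold lower than in cyAC. Those were 26.3% and 15.8% of the 19, and over all genes tested the shares were 10.4% and 15.2%, so the lower share was near that of all genes. Each of the 3 lower genes and 1 of the 5 higher genes (MCM2) passed the filter through a single sample. The higher genes were TYMS (log2 ratio 3.75), STMN1 (1.56), MCM2 (1.55), CDT1 (1.5) and HMGB2 (1.11). The lower genes were UHRF1 (-2.85), CENPE (-1.87) and TPX2 (-1.75). TOP2A, with 6.80 against 0.846 CPM, had a log2 ratio of 2.08 but was under the filter.

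UHRF1 thus had an order of its own. It was at 118 CPM in cyiPSC, 8.72 and 8.88 CPM in the pre-transplant sets, 1.84 CPM after transplantation, 19.4 CPM in cyAC and 13.8 CPM in cyFT. Reads were found in 9.38% of post-transplant cells and in 21.6% of cells in both cyAC and cyFT, at a lower depth in the latter. Since cyAC and cyFT shared a library, library and tissue cannot be told apart for it.

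In cyFT 6 of 12 G2/M genes that passed the filter were at least 2-fold higher than in cyAC. Of all 24 such genes, 8 were at least 2-fold higher in cyFT and 0 lower, against 11.9% and 3.97% of all genes tested. They were the G2/M genes TOP2A, MKI67, CENPF, STMN1, CDK1 and KIF23 and, of 12 S genes, MCM2 and PCNA. Of the 8, PCNA and STMN1 were at 5 CPM or more in both tissues, and the other 6 passed the filter through cyFT, which favours a difference. The median log2 ratio was 1.62 over the 21 listed G2/M genes, 0.64 over the 19 S genes and 0.05 over all genes listed. TOP2A was at 35.8 CPM in cyFT and 0.846 CPM in cyAC (log2 ratio 4.32), MKI67 at 18.9 and 0.507 CPM (3.73), and CENPF at 14.4 and 0.423 CPM (3.44). UBE2C was at 9.38 CPM and CCNB1 at 2.80 CPM in cyFT, both listed at 0 in cyAC. CDK1 was at 16.0 and 1.61 CPM, CCNA2 at 8.03 and 1.94 CPM, CCNB2 at 4.78 and 0.169 CPM, and STMN1 at 62.3 and 5.07 CPM.

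Among the S genes PCNA was at 102 CPM in cyFT and 38.9 CPM in cyAC, RRM2 at 23.9 and 13.4 CPM, and SLBP at 57.7 and 37.3 CPM. The MCM subunits were at 4.51 CPM (MCM5) to 65.1 CPM (MCM6) in cyFT, with log2 ratios to cyAC from 0.18 (MCM4 and MCM6) to 1.51 (MCM3). The lowest ratios of the list were those of CENPE (-0.70), UHRF1 (-0.47) and RFC2 (-0.02). E2F8 had 0 reads in both tissues.

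Against post-transplant cyiPS-Cart, 10 of 23 genes were at least 2-fold higher in cyFT and 1 lower, and 6 of the 10 were under 5 CPM in post-transplant cyiPS-Cart and passed the filter through cyFT. Over all genes tested the shares were 21.1% and 6.48%. CENPF (log2 ratio 3.12), MKI67 (2.97) and UBE2C (2.73) had the highest ratios, though UBE2C was under the filter. TYMS was the lower gene (-3.11), followed by CDT1 (-0.87) and HMGB2 (-0.66).

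The 5 cyFT cells with 10 or more genes held 83.3% of the reads of MKI67, 69.3% of TOP2A, 81.5% of CDK1 and 100% of UBE2C, each counted in the cells with 10 or more of the other genes. The median was 53.5% for the G2/M genes and 22.2% for the S genes, and the lowest values were 11.9% for CDC20 and 18.0% for HMGB2 among the former and 1.26% for MCM6 among the latter. Without the 5 cells MKI67 was at 3.22 CPM and TOP2A at 11.4 CPM in cyFT. With such cells left out of each sample, 4 in place of 8 genes were at least 2-fold higher than in cyAC, and 6 in place of 10 than in post-transplant cyiPS-Cart. Those cells too had been chosen by the same genes. Of the 5 cells, 4 had COL1A1 reads and none of COL2A1, and the other had COL2A1 reads and none of COL1A1. Immune markers (9 genes) summed to 747 CPM over cyFT and 34.2 CPM in cyAC, and to 48.6 CPM in the 5 cells against 765 CPM in the other cyFT cells. In the 5 cells PTPRC, which marks leukocytes, had 0 reads, while the cell with 30 of the genes had 8 reads of the macrophage marker CD68. Their part in the result was not tested.

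The G2/M genes took 63.9% of the reads of the list in cyiPSC, 39.9% in pre-transplant cyiPS-Cart, 41.4% after transplantation, 37.9% in cyAC and 49.0% in cyFT. HMGB2 and STMN1 took part of them in each sample. Without the pair they were 55.6%, 32.2%, 11.6%, 19.0% and 33.3% in the same order. Post-transplant cyiPS-Cart then had the lowest share, with 49.5 CPM of the remaining G2/M genes, against 245 CPM in pre-transplant cyiPS-Cart of the same matrix, 60.8 CPM in cyAC and 203 CPM in cyFT. In the pre-transplant cells with 10 or more genes the share with the pair was 54.2%, and in the rest 29.9%. In cyFT it was 75.8% in such cells and 37.5% in the rest. Post-transplant cyiPS-Cart had the other order, with 27.1% and 42.6%. Such cells were chosen by the same genes and were few in the last 2 samples, so nothing is concluded from these shares.

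The cyiPSC with few of the genes were 30 of 2493 cells with fewer than 10. Their pluripotency markers summed to 575 CPM against 2681 CPM in the other cyiPSC, and the fibroblast markers to 30478 CPM against 292 CPM. Reads of COL1A1 were found in 10 of them, and of the EGFP transgene in all 30, at 545 CPM against 1195 CPM. Their median depth was 37587 reads and 3228 genes, against 145134 reads and 6614 genes. The part of feeder cells in this was not tested.

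The other genes of the widely used S and G2/M phase lists that are not in the 42 had a median log2 ratio of -3.36 in pre-transplant cyiPS-Cart over cyiPSC, with 56 of 56 tested genes at least 2-fold lower (36.7% of all genes tested). From pre-transplant to post-transplant cyiPS-Cart 9 of 31 were lower and 0 higher, against 17.4% and 8.74% of all genes tested, and their median of -0.31 was near the -0.22 of those genes. In cyFT over cyAC 4 of 31 were higher and 1 lower, shares near the 11.9% and 3.97% of all genes tested. Replication licensing and fork genes outside the list (13 of 15 lower in pre-transplant cyiPS-Cart than in cyiPSC) had 0 of 10 genes past 2-fold in either direction after transplantation.

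Of 14 tested regulators of G1 and G1/S, 8 were at least 2-fold lower and 0 higher in pre-transplant cyiPS-Cart than in cyiPSC, where 36.7% of all genes tested were lower. CCND1, cyclin D1, was at 204 CPM in cyiPSC, 84.0 and 85.4 CPM in the pre-transplant sets, 180 CPM after transplantation, 11.8 CPM in cyAC and 66.7 CPM in cyFT. SKP2, which targets p27 for degradation, was at 156, 31.2, 27.8, 5.33, 5.07 and 14.0 CPM in that order. MYBL2, a member of the MYB-MuvB complex that activates G2/M genes, was at 155, 8.01, 8.69, 0.167, 0.338 and 1.17 CPM. Of 7 tested genes of the DREAM and MYB-MuvB complexes 4 were lower in pre-transplant cyiPS-Cart, a count to be set beside the same 36.7%. After transplantation 0 of 6 were lower and 1 higher, beside 17.4% and 8.74% of all genes tested, with MYBL2 under the filter there.

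Of 11 tested CDK inhibitors and p53 targets, 3 were at least 2-fold higher and 2 lower in pre-transplant cyiPS-Cart than in cyiPSC, beside 16.1% and 36.7% of all genes tested. After transplantation 5 were higher and 0 lower than before, beside 8.74% and 17.4%. CDKN1A, which encodes p21, was at 5.91 CPM in cyiPSC, 683 and 709 CPM in the pre-transplant sets, 430 CPM after transplantation, 611 CPM in cyAC and 596 CPM in cyFT. CDKN1C, which encodes p57, was at 27.6, 36.2, 34.3, 109, 9.56 and 11.2 CPM, and was highest after transplantation. BTG2, an antiproliferative p53 target, was at 33.1, 192, 166, 716, 224 and 337 CPM.

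Over the 3527 pre-transplant cells, 10227 genes with reads in at least 2% of cells were ranked by Pearson correlation of their log2(CPM + 1) with the mean of the 40 genes, as a description, since the cells share library and depth. The genes with the highest values were PBK (r = 0.59), PRC1 (0.55), DIAPH3 (0.53), DEPDC1 (0.51) and CEP55 (0.49). PRC1 bundles microtubules of the central spindle and CEP55 acts in the last step of cell separation. Of the first 15, 4 were in the other cycle lists used here (ANLN, NUF2, NDC80 and MYBL2). The remaining 6 were ZWINT, SPC25, KIF15, CENPN, SPAG5 and KIFC1, with r from 0.41 to 0.47, and SPC25 and ZWINT are kinetochore proteins.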

How the data were processed

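Cells were profiled with TAS-Seq on BD Rhapsody beads, in 3 transcriptome libraries; the 3 hashtag libraries were not used here. The deposited matrices hold counts, made by the authors: reads (not molecules) per gene and cell, assigned with Bowtie2 2.4.2 after trimming with cutadapt 3.4 and processed in R 3.6.3. The submitters' processing notes list the build GRCh38, while the study's methods name cynomolgus transcripts; no coordinates were used. The authors used hashtags to separate pooled samples, removed low counts of strongly read genes as diffused background (they became 0) and filtered cells. The smaller matrix holds 320 cells of each of its samples.

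Here cells were assigned by the deposited column prefixes. Reads were summed per condition, scaled to CPM and compared as log2(CPM + 1) among genes with a mean of at least 5 CPM, a difference of 2-fold being counted. The genes named with values were fixed by rule: MCM2 to MCM7, PCNA, TYMS, RRM2, UHRF1, SLBP, the main mitotic genes, HMGB2 and STMN1, and the 3 highest and 3 lowest ratios of each comparison; PRG4, COL2A1 and other genes outside it were chosen after values were seen. The members and lists were chosen with earlier results of these data known. Cells were thinned without replacement to 12191 reads, the tenth percentile of cyFT, and shallower cells left out. Exact Clopper-Pearson (shares) and Poisson (CPM) intervals cover counting error only. With 1 sample per condition no p-value was computed. Scrublet marked 14 cyiPSC, 0 pre-transplant, 8 post-transplant, 2 cyAC and 2 cyFT cells as doublets, 0.232% of the first library, where it was taken not to have worked; cells were kept. Cell numbers shared between libraries were 2 and 4 between the first and the other libraries and 0 between those. Steps were tested on simulated data. The 42 symbols were all found in a RefSeq table of the species, used for names. Tools were Python 3.11.15 with numpy 2.4.6, scipy 1.17.1 and scanpy 1.11.5, and edgeR 4.0.16 (TMM factors) and Seurat 5.3.0 (phase calls) in R 4.3.3. Alternatives were other pseudocounts, filters, scalings, thinning depths and thresholds.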

Additional observations from a re-analysis of the deposited data

How the results depend on the processing

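Shares of cells with 3 or more of the genes moved most with the settings, in the order cyiPSC, pre-transplant, post-transplant, cyAC and cyFT unless named. Without thinning they were 90.6% in pre-transplant cells, 73.4% after transplantation, 54.4% in cyAC and 64.1% in cyFT, and at a deeper thinning 100% in cyiPSC and 87.5% in pre-transplant cells. With 2 genes asked for, they were 82.9%, 66.9%, 64.3% and 69.4% outside cyiPSC, and with 5 genes 99.4%, 27.1%, 7.81%, 5.19% and 11.5%. With 2 reads per gene they were 99.1%, 24.2%, 16.6%, 8.12% and 18.8%. Without HMGB2 and STMN1 they were 59.0%, 23.4%, 19.8% and 32.6% outside cyiPSC. With the other genes of the phase lists in place of the 40 they were 100%, 96.8%, 81.9%, 88.3% and 87.2%, where cyAC no longer was the lowest. Another seed gave 32.5% in cyAC.

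Counts of genes at least 2-fold apart depended on the filter. From pre-transplant to post-transplant, the 17 lower genes became 9 with a pseudocount of 10, 26 with no filter, 0 among genes of at least 50 CPM and 25% of cells (6 of the 40), and 7 without the cells of 10 or more genes. For cyAC over pre-transplant, the 15 lower genes became 25 with no filter, 0 under the 50 CPM filter and 8 without those cells, and the 2 higher became 1 with a pseudocount of 10, under the 50 CPM filter, or with counts of 8 or more. For post-transplant over cyAC, the 5 higher became 2 with a pseudocount of 10 or the 50 CPM filter, and the 3 lower became 1 and 0 with those, and 5 with means of per-cell CPM or without the cells of 10 or more genes. For cyFT over cyAC, the 8 higher became 19 with no filter, 1 under the 50 CPM filter and 4 without those cells. For cyFT over post-transplant, the 10 higher became 18, 0 and 6 in the same order, and the 1 lower became 2 with TMM factors or counts of 8 or more. TMM factors (trimmed mean of M-values) shifted the median log2 ratio of all genes by 0.66 for pre-transplant over cyiPSC and by 0.22 for post-transplant over pre-transplant.

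The G2/M share of reads became 55.6%, 32.2%, 11.6%, 19.0% and 33.3% without HMGB2 and STMN1. As a mean over cells it was 62.5% in cyiPSC, 39.5% in pre-transplant and 44.2% in cyFT, and without the highest 1% of cells 63.3%, 32.8% and 37.0%. The causes of these changes, beyond the genes or cells each setting removes, were not tested. The settings of 10 genes, 20 draws, counts of 8 or more and the removal of cells with 10 or more genes were chosen after seeing the data. No paired analysis was possible because each condition was 1 sample and no test was run.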

Other observations

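Phase calls per cell, made with Seurat's scoring on its own S and G2/M lists, depended on which samples were scored together. Scored with the cyiPSC, 94.9% of the 3527 pre-transplant cells were called G1, 3.54% S and 1.53% G2/M, and of the cyiPSC 1.44% were called G1. Scored with the 3 other tissue samples, 45% of the 320 pre-transplant cells were called G1, 35.3% S and 19.7% G2/M, although 300 of these cells were in both matrices with the same counts. In that second scoring cyAC had 45.9% of its cells called G1, 28.4% S and 25.6% G2/M, while 0 of its cells at equal depth had reads of 10 or more of the 40 genes. Post-transplant cyiPS-Cart had 40.3% called G1 and cyFT 40.9%. The scores are relative to the cells scored together, and no phase share is read from them here.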
